A study of Caenorhabditis elegans with 12 samples.

Results

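Most protein-coding genes of the worm were first recorded under a sequence name, made of the cosmid or clone they lie on and a number, and many are still listed that way because no phenotype, family or function has given them a gene name. The 77 genes described here are such genes. They were expressed in wild-type Caenorhabditis elegans and stood at no more than 50% of the wild-type level in mutants of xpf-1. They were chosen from a deposited table of 46726 genes, of which 20541 were protein-coding and 11019 of those were listed under a sequence name. A mean of at least 5 CPM (the reads of a gene scaled to 1000000 reads counted in its library) in the wild type was reached by 4411 of them, and 91 of these had a mutant mean of at most 50% of the wild-type mean. Of the 91, 14 were left out, namely xpf-1 itself, which the table lists as C47D12.8, and the genes that start within the first 400000 bases of chromosome X or in a short stretch of chromosome V that begins at 3100000. Every member was therefore chosen for its difference between the strains, and that difference is given as a description. Where a count of edgeR calls over the members is printed, it follows from that choice and is no evidence.

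Whole adult worms of day 7 were profiled by mRNA sequencing, with 6 libraries of the laboratory wild type N2 and 6 of the mutant strain TG1660, which carries the allele xpf-1(tm2842). All worms were grown on plates with Escherichia coli OP50, and no group received another treatment. The XPF-1 protein is the cutting subunit of a nuclease used in nucleotide excision repair, the pathway that removes bulky damage such as that from ultraviolet light. The protein also acts in the repair of DNA crosslinks. The growth protocol speaks of triplicates although each group has 6 libraries, and nothing in the labels ties the libraries to separate cultures, so that the spread between libraries may be partly technical. The labels give 1 mutant strain, and other differences between TG1660 and N2 cannot be told apart from the xpf-1 allele.

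Library totals ran from 18407182 to 22817135 counted reads. The xpf-1 gene had 1192 to 1758 reads in the N2 libraries and 213 to 304 in the mutant libraries. N2 replicate 6 has the strain label N2 but a genotype label that names the mutant. It held 1468 xpf-1 reads, within the N2 range. For all 77 members it lay above every mutant library, for 44 of them within the range of the other 5 N2 libraries, for 20 below it and for 13 above it. The N2 mean of the rule includes this library, so its place above the mutant libraries partly follows from the choice of members. Without this library the same rule gave 78 genes, 73 of them shared with the 77. Each of 9 lists of tissue markers had members with reads in the whole-body libraries, and no list had a marker at 0 in all of them. The germline and oocyte list moved most evenly: 22 of its 25 genes were lower in the mutant and 0 higher in edgeR's quasi-likelihood test (adjusted p under 0.05), with a median log2 fold change of -0.78. Its summed level was 8968 to 10335 CPM in N2 and 5875 to 6756 in the mutant. The other lists moved less evenly. Lower and higher calls were 3 and 0 of 6 tested embryo markers, 2 and 0 of 3 coelomocyte markers, 4 and 3 of 12 intestinal, 2 and 3 of 6 hypodermal and cuticle, 4 and 3 of 9 muscle, 1 and 2 of 10 neuronal, 2 and 1 of 3 pharyngeal gland and 1 and 1 of 5 sperm markers. In whole worms, fewer cells of a type and less RNA per cell cannot be told apart, and the part of the germline in the results that follow was not tested.

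Together the 77 genes took 3778 to 4062 CPM of an N2 library (median 3907) and 1538 to 1721 CPM of a mutant library (median 1648). The 5 most abundant members held 33.8% of the N2 sum. Single members had N2 means from 5.08 to 309.7 CPM, with a median of 22.7 against 35.8 for all unnamed expressed genes. Per length, on the authors' FPKM scale (fragments scaled by gene length and library size), the N2 means ran from 2.74 to 400.5 with a median of 31.9, close to the 30.0 of all unnamed expressed genes. For some members the length behind the FPKM is not the gene length listed in the deposited table. The median mutant mean was 42.5% of the N2 mean, and the range was 0.490% to 49.8%. Most members lay near the limit of the rule: 48 kept more than 40%, 15 kept 25% to 40%, 12 kept 10% to 25%, and 2 kept less than 10%. The fitted log2 fold changes of the members had a median of -1.30, against 0.03 over all 14248 genes tested and -0.09 over the unnamed expressed genes.

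In 76 of the 77 genes the 6 N2 libraries all lay above the 6 mutant libraries, where 16.2% of all tested genes did so. The exception was B0393.8. edgeR's quasi-likelihood test called the same number, 76 of 77, lower in the mutant, where 29.6% of all tested genes were called lower and 30.1% higher. Since the rule used this contrast, these counts follow from the choice of members. The margin between the groups varied: the lowest N2 library was at least 1.5 times the highest mutant library in 58 members and at least 2 times in 22.

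**Figure D1:**
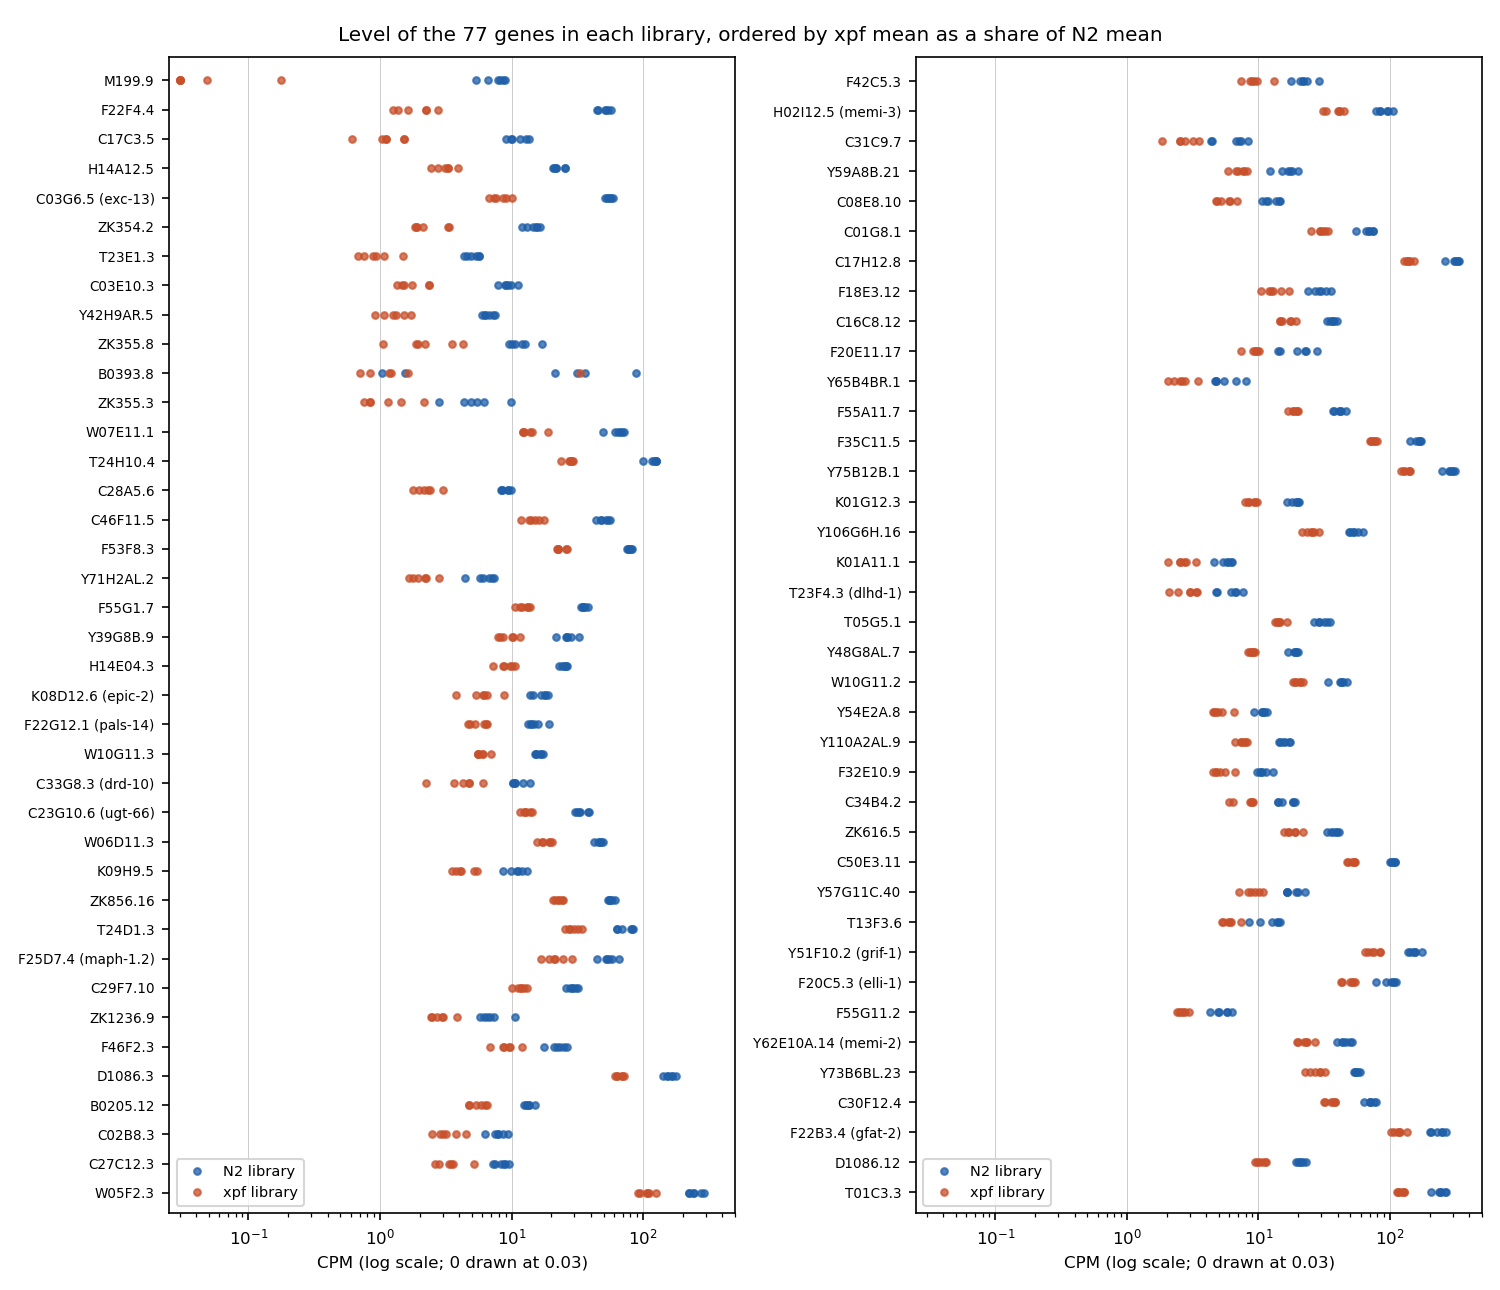
Level of each of the 77 genes in CPM (log axis, 0 drawn at 0.03) in the 6 N2 and the 6 mutant libraries, one point a library, with genes ordered by the mutant mean as a share of the N2 mean. The groups are apart in 76 genes, and in B0393.8 both groups hold high and low libraries.

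**Figure D2:**
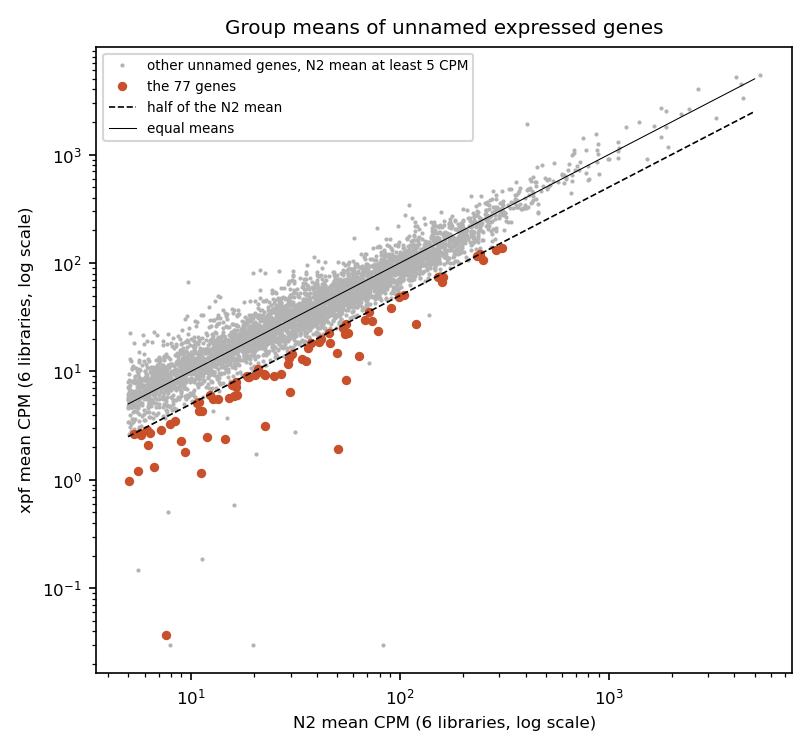
Mean level in the mutant against mean level in N2 (CPM, log axes, 6 libraries each) for the unnamed expressed genes, with the 77 genes in orange and lines at equality and at 50% of the N2 mean. The grey points under the lower line are the 14 genes left out by position or because they are xpf-1, and mutant means under 0.03 CPM are drawn at 0.03.

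The rule drew a line through a continuous range of ratios. Just inside it lay T01C3.3 at 49.8% of the N2 mean, D1086.12 and gfat-2 at 49.7% and 49.6%, C30F12.4 at 49.6% and Y73B6BL.23 at 49.5%. Just outside it lay Y17G9B.4 at 50.01%, F55G1.6 at 50.2%, W09G12.9 and F25H9.2 at 50.3% each and B0507.8 at 50.3%. Between 45% and 50% there were 30 members, and between 50% and 55% there were 59 unnamed expressed genes outside the regions left out. On the level side, T23E1.3 with an N2 mean of 5.08 CPM was the lowest inside, followed by F55G11.2 at 5.35 and ZK355.3 at 5.60 CPM. Below the limit C55C3.3, with an N2 mean of 4.74 CPM, had a mutant mean at 6.83% of it, a lower share than all but 2 of the members.

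Some genes with a name were lower to this degree as well. Of the unnamed expressed genes outside the regions left out, 77 of 4385 (1.76%) met the rule, and of named protein-coding genes at the same level 62 of 4887 (1.27%) would have met it. The difference between these shares was not tested. The reference name table matched all 77 members and gave current names to 12 of them. Those are memi-2 and memi-3, elli-1, gfat-2, ugt-66, pals-14, maph-1.2, dlhd-1, drd-10, exc-13, epic-2 and grif-1. The other 65 were still listed by sequence name there, so that no function is stated for them here.

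Of the 12 members with a current name, several have known roles in the germline and the early embryo. The memi genes are supplied by the mother and act in the passage from meiosis to mitosis after fertilisation. H02I12.5, now memi-3 (chromosome IV, 11401948 to 11403337, minus strand), had 77.7 CPM in the lowest N2 library, a median of 89.5 and 104.9 in the highest, against 30.7, 40.7 and 44.9 in the mutant. Y62E10A.14, now memi-2 (chromosome IV, 13399067 to 13400513, minus strand), had 39.3, 45.2 and 51.4 CPM in N2 and 19.59, 22.61 and 27.0003 in the mutant. In both genes the groups did not overlap, at 42.7% and 49.5% of the N2 mean. The 2 genes are of like structure, with 344 and 345 codons and 4 exons each, and the split of reads between them was not checked. elli-1 (F20C5.3), which acts in the perinuclear RNA granules of germ cells, had 78.2, 103.5 and 111.1 CPM in N2 and 42.7, 50.6 and 54.4 in the mutant. The groups were again apart, at 49.2%. That these 3 genes were lower follows from the choice of members. Whether it goes with the fall of 22 of 25 germline and oocyte markers given above was not tested.

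Enzymes make up another group among the named members. gfat-2 (F22B3.4, chromosome IV, 11410485 to 11413001) encodes glutamine-fructose-6-phosphate aminotransferase, the entry step of hexosamine synthesis, which feeds chitin and protein glycosylation. It was one of the more abundant members, with 202.6 CPM in the lowest N2 library, a median of 238.5 and a highest value of 264.9, against 102.4, 116.3 and 134.2 in the mutant. Its relative gfat-1, listed as F07A11.2, stood at 112 ± 6.52 CPM in N2 and 91.0 ± 8.55 in the mutant (SD, n = 6), or 81.1%. ugt-66 (C23G10.6) encodes a UDP-glucuronosyltransferase, an enzyme class that conjugates sugars to small lipophilic molecules. It had 30.4, 32.8 and 38.9 CPM in N2 and 11.57, 12.81 and 14.32 in the mutant, 38.03% of the N2 mean. dlhd-1 (T23F4.3), annotated as a dienelactone hydrolase relative, was a low member with N2 values of 4.75 to 7.66 CPM and mutant values of 2.08 to 3.42 CPM, and its groups did not overlap.

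The remaining named members were more mixed. exc-13 (C03G6.5, chromosome V, 7365243 to 7366224), of a group of genes named for the excretory canal, had 51.17, 54.99 and 58.61 CPM in N2 and 6.78, 8.12 and 10.1 in the mutant. Its mutant mean was 15.0007% of the N2 mean, the lowest share of the 12 genes with current names. maph-1.2 (F25D7.4), a homologue of microtubule-associated proteins, had 44.5, 54.1 and 65.2 CPM in N2 and 16.8, 21.2 and 28.7 in the mutant. Its relatives stood higher relative to N2: maph-1.1, listed as F32A7.5, stood at 131% of its N2 mean and maph-1.3, listed as C36A4.5, at 86.2%. pals-14 (F22G12.1), of a family with several members induced in the response to intracellular pathogens, had 13.3 to 19.3 CPM in N2 and 4.65 to 6.47 in the mutant. drd-10 (C33G8.3), named for genes lowered by dietary restriction, had 10.2 to 13.9 CPM in N2 and 2.24 to 6.03 in the mutant. epic-2 (K08D12.6) stood at 36.7% of its N2 mean of 16.7 CPM, and its relative epic-1, listed as F11E6.3, at 53.96% of 25.8 CPM. grif-1 (Y51F10.2) had N2 values of 137.3 to 174.5 CPM and mutant values of 65.0 to 83.7 CPM. The relatives gfat-1, maph-1.1, maph-1.3 and epic-1 were looked up after the values of the members were seen.

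The lowest share was that of M199.9 (chromosome IV, 15127491 to 15127791, minus strand). It had 5.38 CPM in the lowest N2 library, a median of 8.05 and a highest value of 8.89, and in the mutant a lowest value and a median of 0 and a highest value of 0.175 CPM. In reads this was a total of 932 in the N2 group and 5 in the mutant group. The mutant total was 0.533% of the N2 total, scaled for depth, with a 95% counting interval of 0.173% to 1.25% (exact, counting error only). Its length of 75 codons makes it one of the short members. The genes on both sides of it differed in the same direction. clec-190, a C-type lectin gene 1369 bases away on the same strand, had 48.9 to 62.6 CPM in N2 and 0.506 to 1.36 in the mutant, and col-135, a collagen gene 1870 bases away on its other side, had 4.49 to 6.11 CPM in N2 and 0 to 0.562 in the mutant. The 3 genes lie in a row on the minus strand from 15124933 to 15131786. The next protein-coding genes beyond this row, M199.7 past clec-190 and M199.8 past col-135, had 1 and 15 reads in the N2 group, too few to be tested.

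F22F4.4 (chromosome X, 5998250 to 6001534, minus strand) was the next, with 44.3, 52.2 and 56.7 CPM in N2 and 1.27, 1.94 and 2.74 in the mutant, a share of 3.77% (95% counting interval of the pooled reads 3.32% to 4.32%). Unlike M199.9 it was well covered in N2, with 6257 reads against 239. The end of its span overlaps by 2 bases that of inx-3, an innexin gene on the opposite strand with a mean of 278.7 CPM in N2 and 334.5 in the mutant. The labels do not state whether counting used the strand. The gene beyond on the other side, F22F4.1, had 41 reads in the N2 group and was not tested.

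A further 12 members kept 10% to 25%. C17C3.5 (chromosome II, 5551935 to 5552335) had 9.04, 10.8 and 13.5 CPM in N2 and 0.609, 1.11 and 1.53 in the mutant, 10.3% of the N2 mean. H14A12.5 (chromosome III, 7467595 to 7468089, minus strand) had 20.6, 21.8 and 25.5 CPM in N2 and 2.45, 3.21 and 3.95 in the mutant, 13.9%. Its span overlaps the end of fum-1, the fumarase gene on the opposite strand, which stood at 84.5% of its N2 mean of 109.9 CPM. T24H10.4 (chromosome II, 9109539 to 9111240) was the most abundant of the 12, with 100.4, 122.7 and 126.2 CPM in N2 and 23.7, 28.0 and 29.3 in the mutant, 23.1%. W07E11.1 (chromosome X, 10084667 to 10104121), the longest member at 2185 codons, had 49.9, 65.8 and 71.2 CPM in N2 and 12.2, 13.1 and 18.9 in the mutant, 21.9%. In all 4 genes the groups were apart by a wide margin. ZK354.2 stood at 16.5% of an N2 mean of 14.5 CPM, T23E1.3 at 19.1% of 5.08, C03E10.3 at 19.1% of 9.40 and Y42H9AR.5 at 19.5% of 6.69 CPM.

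Between 25% and 40% there were 15 members. C28A5.6 (chromosome III, 4423714 to 4429499), the second longest member at 1064 codons, had 8.33, 8.87 and 9.96 CPM in N2 and 1.77, 2.25 and 2.99 in the mutant, 25.3% of the N2 mean. F53F8.3 (chromosome V, 20688620 to 20689529) was the most abundant of the 15, with 75.3, 78.03 and 81.7 CPM in N2 and 22.3, 22.6 and 26.2 in the mutant, and its libraries spread little in both groups. Y71H2AL.2 had 4.42, 6.41 and 7.34 CPM in N2 and 1.67, 2.06 and 2.78 in the mutant. Its lowest N2 library was thus less than 2 times its highest mutant library. Y39G8B.9 stood at 35.2% of an N2 mean of 26.9 CPM and H14E04.3 at 36.6% of 24.98 CPM. W06D11.3 on chromosome X stood at 38.99% of 46.6 CPM and K09H9.5 at 39.8% of 10.97 CPM. ZK856.16, a gene with a single exon and 86 codons, had 54.5, 55.8 and 61.5 CPM in N2 and 20.6, 22.8 and 24.7 in the mutant, and per length it was high, at 165.5 ± 7.85 FPKM in N2 (SD, n = 6).

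Among the 48 members above 40%, the groups lay close in some and far apart in others. C50E3.11 (chromosome V, 7602252 to 7603494) had 99.5, 105.6 and 109.3 CPM in N2 and 47.2, 52.01 and 54.5 in the mutant, so that its lowest N2 library was well above its highest mutant library. By contrast the lowest N2 library of T13F3.6 had 8.49 CPM and its highest mutant library 7.41. The corresponding values were 4.34 and 3.53 CPM in C31C9.7, 4.70 and 3.44 CPM in Y65B4BR.1 and 14.02 and 10.1 CPM in F20E11.17. F20E11.17 also spread widely in N2, with a median of 21.1 and a highest value of 27.7 CPM. The other members in this class likewise had all N2 libraries above all mutant libraries.

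B0393.8 (chromosome III, 4751878 to 4752370, minus strand) met the rule through a pattern that no other member had. In N2 it had 1.03, 1.55, 36.1, 31.2, 21.3 and 88.2 CPM in replicates 1 to 6, and in the mutant 0.702, 1.20, 32.8, 1.16, 1.63 and 0.833 CPM. It was thus high in 5 libraries, 4 of N2 and 1 of the mutant, all at 21.3 CPM or more, and low in the other 7, all at 1.63 CPM or less. The coefficient of variation was 107% in N2 and 203% in the mutant, the highest of the 77 in both groups. Its fitted log2 fold change, a description, was -2.32 ± 1.19 (SE) and moved with single libraries. It was -0.25 in replicates 1 to 3 alone and -5.37 in replicates 4 to 6 alone, -1.58 without N2 replicate 6 and -4.84 without mutant replicate 3, the only high mutant library. The flanking rps-0, a ribosomal protein gene 528 bases away on the same strand, had 1672 to 1988 CPM in N2 and 1163 to 1317 in the mutant, with no separation of the 5 libraries from the rest. VB0393L.2 on the other side had 0.405 to 1.40 CPM in all 12.

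**Figure D3:**
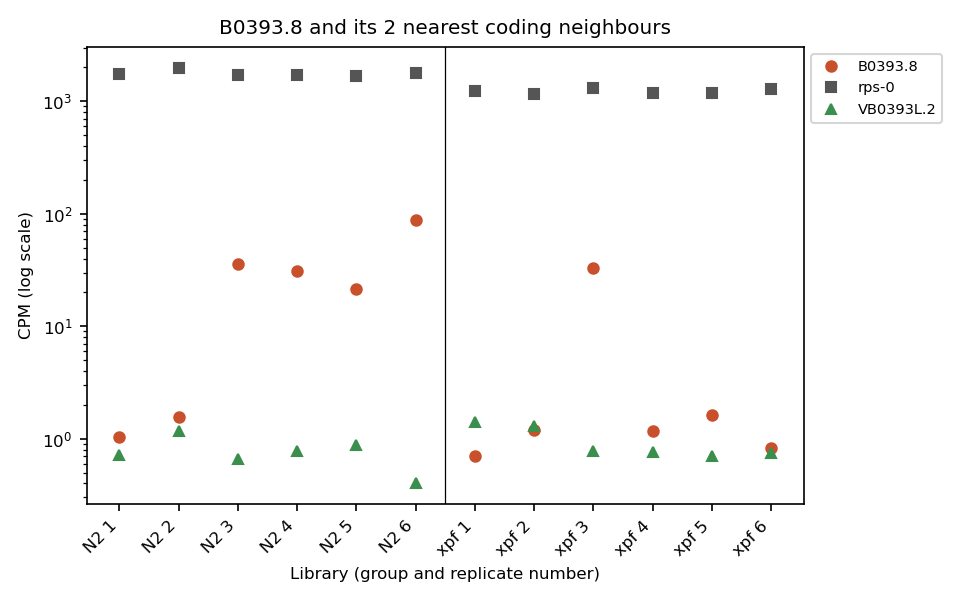
Level of B0393.8 and of the nearest protein-coding genes on either side, rps-0 and VB0393L.2, in CPM (log axis) in each library, one point a library. B0393.8 is at 21.3 CPM or more in N2 replicates 3 to 6 and mutant replicate 3 and at 1.63 CPM or less in the other 7 libraries, while neither neighbour shows these steps.

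The 5 most abundant members on the read scale, gfat-2 among them, had shares between 42.5% and 49.8%, close to the limit of the rule. C17H12.8 (chromosome IV, 6818606 to 6820643) had 260.2, 317.0 and 332.0 CPM in N2 and 128.5, 136.3 and 152.4 in the mutant. Y75B12B.1 (chromosome V, 15184706 to 15185806) had 247.5, 290.5 and 312.9 CPM in N2 and 120.1, 134.1 and 141.3 in the mutant. W05F2.3 (chromosome I, 3367639 to 3368552) had 222.2, 241.8 and 289.8 CPM in N2 and 91.6, 107.0 and 124.8 in the mutant. No N2 library of these 3 genes was under 222.2 CPM and no mutant library above 152.4 CPM. T01C3.3 followed with 204.7, 243.4 and 266.4 CPM in N2 and 113.8, 119.6 and 128.5 in the mutant. F35C11.5, D1086.3 and C50E3.11 had N2 means of 161.9, 159.3 and 105.2 CPM and mutant means of 74.6, 66.2 and 51.2 CPM. On the FPKM scale, Y75B12B.1 was the highest of the 77, at 400.5 ± 31.1 in N2 and 185 ± 12.4 in the mutant (SD, n = 6). It was followed by W05F2.3 at 311.4 ± 34.2 and T01C3.3 at 275.9 ± 24.9 FPKM in N2. The FPKM of Y75B12B.1 is higher than its CPM and its listed gene length of 970 bases would give, so its rank per length is uncertain.

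The members were spread over all 6 chromosomes: 12 of 789 unnamed expressed genes on chromosome I, 13 of 772 on II, 10 of 755 on III, 18 of 727 on IV, 17 of 785 on V and 7 of 547 on X. These shares ran from 1.28% on X to 2.48% on IV, beside 1.76% over all. The xpf-1 gene lies on chromosome II, and within 1 Mb of it there were 108 unnamed expressed genes and 0 members. The nearest member, C31C9.7, lay 1963745 bases away.

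Within 20 kb of another member there were 8 of the 77, in 4 pairs. ZK355.3 and ZK355.8 (chromosome II, 2927017 to 2928149) are transcribed away from each other across a gap of 179 bases. ZK355.3 had 2.79, 5.20 and 9.86 CPM in N2 and 0.759, 0.987 and 2.17 in the mutant. ZK355.8 had 9.60, 11.3 and 16.9 CPM in N2 and 1.05, 2.08 and 4.24 in the mutant. Their shares, 21.4% and 20.7%, were close to each other, while ZK355.2, 65 bases beyond ZK355.3, had 14.9 ± 1.69 CPM in N2 and 16.6 ± 1.35 in the mutant (SD, n = 6), a difference that did not pass (edgeR adjusted p = 0.385). W10G11.2 and W10G11.3 (chromosome II, 3560729 to 3562565) follow each other on the minus strand with 124 bases between them. W10G11.2 had 33.62, 43.01 and 46.98 CPM in N2 and 18.25, 19.96 and 21.92 in the mutant, and W10G11.3 had 15.1, 15.8 and 17.4 CPM in N2 and 5.52, 5.78 and 6.92 in the mutant. Both pairs had all N2 libraries above all mutant libraries, at 47.5% and 36.98% of the N2 mean in the second pair.

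The other pairs were further apart. memi-3 and gfat-2 were separated by 7147 bases on chromosome IV. Between them lies cyp-31A2, a cytochrome P450 gene that acts with cyp-31A3 in forming the lipid layer of the eggshell, which fell from 99.1 ± 7.10 to 52.8 ± 4.44 CPM (SD, n = 6; log2 fold change -0.98 ± 0.06, edgeR adjusted p = 6.87e-16). The histone gene his-63 lies in the same gap, and its levels of 3.92 to 8.04 CPM in N2 and 5.15 to 6.68 in the mutant overlapped. D1086.3 and D1086.12 on chromosome V were 7267 bases apart. D1086.8, 181 bases downstream of D1086.3 on the same strand, fell by 0.81 ± 0.11 log2 units (edgeR adjusted p = 1.94e-07), and D1086.1 between the pair had 48.0 ± 6.94 CPM in N2 and 51.9 ± 4.62 in the mutant and did not pass (edgeR adjusted p = 0.664).

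Position beyond the regions left out played no part in the choice of members, so the genes beside them were tested. The nearest protein-coding genes on both sides, members left out, came to 150 genes, of which 113 had enough reads. In the fit across all genes 51 of the 113 (45.1%) were lower in the mutant and 24 (21.2%) were higher, where 30.1% of all tested protein-coding genes were lower and 30.0% higher. The neighbours had a median log2 fold change of -0.20, against 0.02 for all tested protein-coding genes. Among the 6028 tested neighbours of the other unnamed expressed genes, 33.7% were lower and 28.2% higher. Of the 60 neighbours on the strand of the member, 30 were lower and 10 higher, and of the 53 on the opposite strand 21 were lower and 14 higher. For the neighbours of other unnamed expressed genes, 34.4% were lower and 28.1% higher on the same strand. On the opposite strand 32.7% of them were lower and 28.4% higher. On the same strand and within 500 bases, a spacing found inside the worm's operons, 13 of 22 were lower, and 45.5% of the corresponding neighbours of other unnamed expressed genes were lower. These shares were set side by side and the differences between them were not tested.

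Large differences among the neighbours went in both directions. At a log2 fold change of -1 or less there were 7, 6.19% of those tested, beside 2.48% of all tested protein-coding genes and 1.49% of the neighbours of other unnamed expressed genes. At 1 or more there were 6, 5.31% beside 5.94% of all tested protein-coding genes. Besides clec-190 and col-135, the lower neighbours were Y57G11C.41, dod-22, plk-3, cyp-31A5 and F31F6.1. Y57G11C.41, 1413 bases upstream of Y57G11C.40, fell by 2.77 ± 0.26 log2 units (edgeR adjusted p = 8.24e-11), from 465 reads over N2 to 71 over the mutant. dod-22, a gene downstream of the insulin-like receptor pathway, lies 71 bases from F55G11.2 on the opposite strand and fell from 3.87 ± 0.844 to 1.00 ± 0.108 CPM (SD, n = 6; edgeR adjusted p = 1.01e-10).

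F55G1.7 lies in a row of 3 genes on chromosome IV that all stood lower in the mutant, the member lowest. F55G1.7 (7466701 to 7469832, minus strand) had 34.0, 35.1 and 38.1 CPM in N2 and 10.7, 12.5 and 13.8 in the mutant, 35.0% of the N2 mean. Next to it, 1026 bases upstream, plk-3, a gene of the Polo-like kinase family, fell from 163 ± 24.4 to 79.9 ± 8.06 CPM (SD, n = 6; edgeR adjusted p = 5.79e-08), to 49.1%. Beyond plk-3 lies F55G1.6, one of the genes just outside the rule, at 50.2% of 73.2 CPM. The opposite side of F55G1.7 holds F13B6.3, which fell by less, 0.53 ± 0.15 log2 units (edgeR adjusted p = 0.00259).

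Both memi members lie beside a gene of the same small cytochrome family, on the opposite strand in each case. cyp-31A2 lies 623 bases from memi-3 as given above, and cyp-31A5 lies 792 bases from memi-2. cyp-31A5 fell from 64.3 ± 5.21 to 32.004 ± 3.24 CPM (SD, n = 6; log2 fold change -1.07 ± 0.06, edgeR adjusted p = 2.09e-15). cyp-31A3, which has no member beside it, fell by less, from 57.1 ± 3.56 to 43.2 ± 3.31 CPM (log2 fold change -0.47 ± 0.06, edgeR adjusted p = 3.68e-08, n = 6). It starts at 4761060 on chromosome IV. Y17G9B.4, just outside the rule at 50.01%, lies on that chromosome from 4752094 to 4753230. The cyp-31A genes are close relatives of each other, so the split of reads among them is uncertain.

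The neighbours that rose stood beside members in opposed changes. fil-1, a lipase gene induced on fasting, lies 1231 bases from T01C3.3 and rose from 2.85 ± 0.674 to 19.03 ± 1.89 CPM (SD, n = 6; log2 fold change 2.67 ± 0.12, edgeR adjusted p = 1.02e-18). klp-11, a kinesin motor subunit gene, lies 227 bases from elli-1 on the same strand and rose from 7.34 ± 0.921 to 18.7 ± 2.48 CPM (edgeR adjusted p = 8.77e-13). F46F2.3 (17.6, 22.7 and 26.5 CPM in N2, 6.88, 9.15 and 12.01 in the mutant) lies between F46F2.4 and F46F2.5, which rose by 1.89 ± 0.25 and 1.82 ± 0.17 log2 units (edgeR adjusted p = 7.58e-08 and 2.98e-11). T13F3.8, 347 bases from T13F3.6, rose by 2.51 ± 0.28 log2 units, and rpi-2, 6610 bases from epic-2, by 1.15 ± 0.33 log2 units (edgeR adjusted p = 3.68e-09 and 0.00385). Of these, T13F3.8, rpi-2 and F46F2.4 were low, with N2 means of 0.454, 0.496 and 0.517 CPM.

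**Figure D4:**
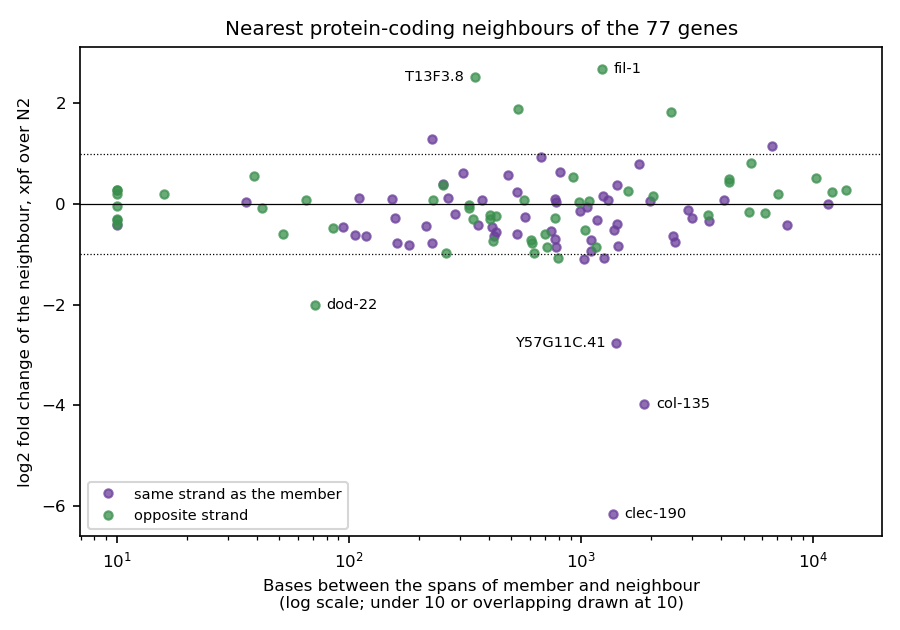
Log2 fold change (mutant over N2) of the 113 tested neighbours against their distance in bases from the member (log axis, overlapping or under 10 drawn at 10), coloured by strand, with dotted lines at -1 and 1. Of the points 51 were called lower and 24 higher, with clec-190 and col-135 lowest and fil-1 and T13F3.8 highest.

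The members had a lower median coding length than the genes they were drawn from, a difference that was not tested. In the Ensembl annotation of the same genome build, in which all 77 are protein-coding, the longest coding transcript had a median of 209 codons, against 330 codons for the 4259 other unnamed expressed genes with one. Under 150 codons there were 22 of the 77 (28.6%), against 14.2% of the others. The shortest member, C31C9.7, had 46 codons, B0205.12 had 50 and F22F4.4 had 56. The median number of exons was 4 against 5. Short genes also had slightly lower mutant levels outside the membership: the other unnamed expressed genes under 150 codons had a median log2 fold change of -0.15, and those of 150 codons or more -0.07. Among members the medians were -1.41 for the 22 short genes and -1.24 for the other 55. The spans of only 4 members are identical in the deposited table and in this annotation, so lengths from it can differ from those behind the counts.

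**Figure D5:**
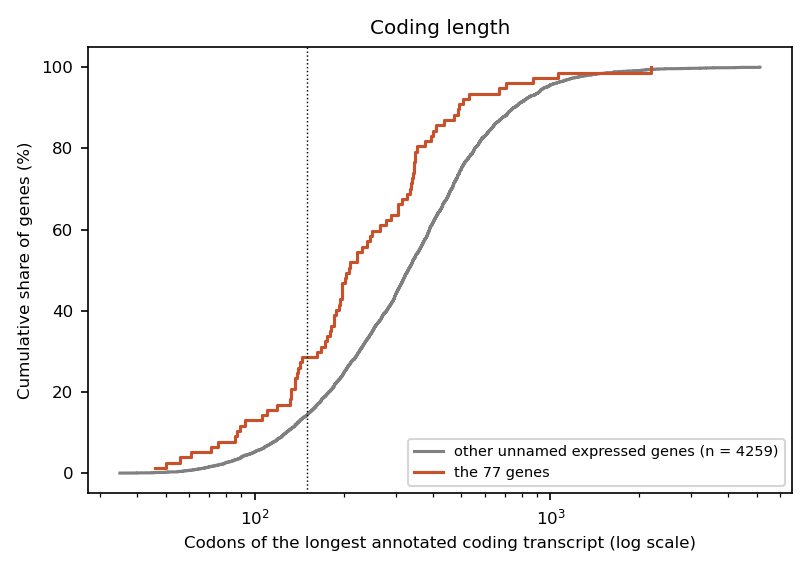
Cumulative share of genes (percent) by the number of codons of the longest annotated coding transcript (log axis) for the 77 genes and for the 4259 other unnamed expressed genes, with a dotted line at 150 codons. At that line the curve of the 77 genes is at 28.6% and that of the others at 14.2%.

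The spread within a group was measured as the coefficient of variation over its libraries, and the difference in spread was not tested. The median coefficient of variation was 10.6% in N2 and 13.4% in the mutant, against 8.36% and 7.86% for the other unnamed expressed genes. Low counts spread more, and the members were low in the mutant by construction. Against other unnamed genes of like level (within 0.25 log2 units), whose medians were 8.63% in N2 and 12.01% in the mutant, 50 of 77 members lay above in N2 and 46 of 71 in the mutant. These other genes had an N2 mean of at least 5 CPM and, apart from the genes left out of the rule, kept more than 50% of it. Members lowest in the mutant were thus matched only to genes left out of the rule or to none, and only 71 had a match there. No single library held most of the extremes: the highest N2 value of a member was most often in replicate 2 (23 genes) and the lowest most often in replicate 6 (20 genes). In the mutant the highest was most often in replicate 2 (21 genes) and the lowest in replicate 1 (21 genes).

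The rule was also applied to some libraries and the chosen genes were read in the others. Nothing in the labels ties the libraries to separate cultures, so these sets of libraries may not be independent. The values are therefore a description. With the rule applied to replicates 1 to 3 alone, 87 genes were chosen with a median share of 44.1%. In replicates 4 to 6 the same genes had a median of 45.7%, and 62 of the 87 were again at 50% or less. With replicates 4 to 6 choosing, the 85 genes had a median of 43.7% there and 44.3% in replicates 1 to 3, where 62 were again at 50% or less. The highest share in the libraries not used for the choice was 68.4%, for Y47G6A.21, in the first case and 89.8%, for B0393.8, in the second.

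Some members overlap other genes. The span of 13 members overlaps that of another gene with reads, in 10 cases a protein-coding one. The partner was well above the member in Y106G6H.16, H14A12.5, F22F4.4, Y42H9AR.5 and C46F11.5, where it had an N2 mean of 27.6 CPM or more and lay on the opposite strand. The shared stretch was 4 bases in Y106G6H.16, 2 in F22F4.4 and 40 in H14A12.5, and longer in Y42H9AR.5 and C46F11.5, at 248 and 288 bases. Still longer stretches were shared with partners below the member in level. W07E11.1 shared 795, 857 and 613 bases with flp-2, flp-3 and flp-28 on the opposite strand, of which flp-28 had an N2 mean of 31.2 CPM. C34B4.2 shared 454 bases with C34B4.4 on the same strand. C46F11.5, at 43.8 to 56.1 CPM in N2 and 11.9 to 17.5 in the mutant, overlaps the end of the glutathione reductase gene gsr-1, which rose from 161 ± 9.86 to 206 ± 16.6 CPM (SD, n = 6; edgeR adjusted p = 9.74e-06). How many reads fell in the shared stretches was not measured.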

How the data were processed

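The authors counted reads per gene, and these deposited read counts were the input of every test. Reads were aligned and counted with tools that, per the submitters' processing notes, include HISAT2 2.1.0, featureCounts 1.5.0-p3 and CASAVA, on genome build WBcel235. The labels do not state the strand setting or the annotation release. The authors also deposited FPKM values, used only to compare levels between genes, and, per the file headers, size-factor-scaled counts (a signal), a log2 fold change with its p-value (raw and adjusted), which were not used. Coordinates are those of the deposited table.

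CPM is the count divided by the library's column sum. The test was edgeR 4.0.16 under R 4.3.3 (filterByExpr, TMM, robust quasi-likelihood fit, Benjamini-Hochberg over 14248 genes, threshold 0.05), mutant against N2, after a check on simulated data. The biological coefficient of variation was 9.62%. No 2 libraries of a group agreed within sampling noise (chi-square over degrees of freedom at least 6.11). Values are mean ± SD. Log2 fold changes have an SE derived as their absolute value over the square root of the F statistic of the quasi-likelihood test. Neighbours are the nearest protein-coding genes on each side by the deposited coordinates. Names, codons and exons came from a reference name table and an Ensembl annotation of WBcel235. The marker lists covered germline, sperm, embryo, intestine, hypodermis, muscle, neurons, pharyngeal gland and coelomocytes.

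The members, lists and tests were chosen with earlier results of these data known. Named genes were to be the members with the lowest shares and highest levels, members within 20 kb of each other, those at the limits of the rule, and neighbours with a called 2-fold difference. Other genes named were chosen after their values were seen. Alternatives covered the scaling, the low-count filter, DESeq2 1.42.0, a replicate block, libraries left out, a test against a 1.5-fold change and the limits of the rule. Sequences were not analysed here.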

Additional observations from a re-analysis of the deposited data

Results flagged for a closer look

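In 8 of 154 groups of 6 libraries (77 genes in 2 groups), 1 library stood apart from the other 5 by more than Dixon's critical gap at the 95% level. Chance flags about 1 in 20 groups. B0393.8 stood at 32.8 CPM in mutant replicate 3, with the other mutant libraries at 0.702 to 1.63 CPM. T24H10.4 was low in N2 replicate 2, at 100.4 CPM beside 117.7 to 126.2, and in mutant replicate 1, at 23.7 CPM beside 27.3 to 29.3. M199.9 had 0.175 CPM in mutant replicate 6 and at most 0.0482 CPM in the others. ZK1236.9 had 10.5 CPM in N2 replicate 6 beside 5.79 to 7.39 CPM. W07E11.1 had 18.9 CPM in mutant replicate 1 beside 12.2 to 14.3 CPM. C17H12.8 had 260.2 CPM in N2 replicate 3 beside 305.6 to 332.0 CPM, and W10G11.3 had 6.92 CPM in mutant replicate 6 beside 5.52 to 6.04 CPM.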

How the results depend on the processing

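The number of members depended on the limits of the rule: 126 genes met it with an N2 minimum of 2 CPM and 29 with a limit of 40%. With TMM-adjusted library sizes 104 genes met it, all 77 among them, and with medians over libraries 80, of which 72 were shared. Leaving out 1 library at a time gave 72 to 84 genes, 76 to 77 members called lower, 4066 to 4205 genes called lower over all, a median log2 fold change of the members of -1.34 to -1.28, and 47 to 51 neighbours called lower. With library totals in place of TMM factors the members' median was -1.24. Against a 1.5-fold change 663 genes and 15 neighbours were called lower. With 2 neighbours on each side 96 of 215 (44.7%) were lower. With the replicate number as a block, 76 members, 4225 genes and 51 neighbours were lower and the members' median was -1.30. Same-numbered libraries deviated together with correlations of -0.00312 to 0.12, so the numbers were not taken as pairs. Of 891 values of 43 of the named genes under alternatives, 886 kept their direction and side of the threshold and 0 changed direction. These genes were members, chosen on this contrast, and neighbours chosen for a called 2-fold difference. That their values held thus largely follows from the choice and is no evidence. Other genes named in the text were not among the 43. B0393.8 crossed the threshold in 2 (log2 fold change -4.84 without mutant replicate 3 and -5.37 in replicates 4 to 6) and stood at -0.25 in replicates 1 to 3 and -1.58 without N2 replicate 6, and rpi-2 lost its call in 2 and F31F6.1 in 1. The comparison of related proteins, promoters and protein sequences was not run. The neighbours of other unnamed expressed genes and the choice in one set of replicates read in the other were added after seeing the data. Counting error limits the members under 10 CPM most.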
